A study of Mus musculus with 2 samples.

Results

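The 60 genes described here encode proteins that build ribosomes in the nucleolus. Some encode RNA polymerase I and its initiation factors, or the proteins of the box C/D and H/ACA small nucleolar ribonucleoproteins (snoRNPs). Others encode general nucleolar proteins, or assembly factors of the small and the large ribosomal subunit. The genes were taken by symbol from a list and sorted into these 6 roles from general knowledge of them. All 60 were found among the 27179 genes of the count table, and no measured value was used to choose them, although the list was drawn up with earlier results of these data known.

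RNA was sequenced from ALL211 cells, a T-cell acute lymphoblastic leukemia that arose in a mouse with the transgenes Vav-tTA and TRE-GFP-shIkaros. The tetracycline-controlled transactivator, which the Vav promoter drives in blood cells, switches on GFP and a short hairpin RNA against Ikaros, a DNA-binding regulator of lymphocyte development; doxycycline (Dox) switches both off, and endogenous Ikaros returns. Cells were sorted from spleens of mice that had received the leukemia, as GFP-high cells from untreated mice (1 library) and as GFP-mid cells from mice given Dox for 3 days (1 library). Both groups carry the same leukemia and both transgenes, so the results concern 1 primary leukemia, and Dox-treated cells without the hairpin were not analysed here. The series' design speaks of 2 mice for each condition, yet there is 1 sample for each, and no source used here says if mice were pooled.

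The libraries held 16960042 counts (untreated) and 16484613 counts (Dox). With 1 library per condition there is no replicate check, no test between conditions was made and no p-value is given. Every interval below is an exact 95% interval of the ratio of counts, which covers counting error only and treats reads as independent, which PCR copies are not. Treatment, sorting gate and mouse differed together between the libraries and cannot be told apart. Ikzf1, which encodes Ikaros, was at 120.5 CPM (counts scaled to the library's total, after TMM correction) untreated and at 1229 CPM with Dox, the direction of the labels. All 10 T-cell markers exceeded 1 CPM in both libraries and summed to 6825 CPM untreated and 8933 CPM with Dox. Markers of other cells were higher in the Dox library: 12 macrophage genes summed to 71.9 and 341.7 CPM, 8 dendritic cell genes to 1.11 and 48.5 CPM, 7 erythroid genes to 10.0 and 60.3 CPM, and 8 neutrophil genes to 5.45 and 10.1 CPM. Most of both macrophage sums was Itgam, at 60.6 CPM untreated and 181.0 CPM with Dox. Mpeg1, the next most abundant, was at 1.64 and 96.8 CPM. Of 8 B-cell genes, which summed to 0.469 and 4.58 CPM, the defining markers Pax5 and Ebf1 were at 0 counts in both libraries, and 5 dendritic markers (Clec9a, Siglech, Zbtb46, Batf3 and Cd209a) were at 0 counts in the untreated library. The part of these other cells in the results below was not tested.

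Ribosome production starts when RNA polymerase I copies the ribosomal RNA genes into a long precursor inside the nucleolus. SnoRNPs modify that precursor, guided by their RNA, and assembly factors fold it, cut it and load ribosomal proteins until the small and the large subunit leave for the cytoplasm. The process consumes much of the transcription of a growing cell, and in lymphocytes and their tumours its genes are classically known as targets of the growth-promoting transcription factor Myc.

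All 60 genes were lower in the Dox library, and for all 60 the counting interval lay wholly below no difference. Of these, 49 (81.7%) were lower by 2-fold or more and 0 higher by as much. Across the 12125 genes that reached 1 CPM in either library, 13.0% were lower and 13.6% higher by 2-fold or more. The median log2 fold (Dox minus untreated) was -1.50 over the 60 genes, with quartiles of -1.93 and -1.07, against -0.01 over all genes tested. For 43 of the 60 the whole interval was beyond 2-fold lower, as it was for 1016 of the 12125 genes tested. With a median of -0.01, a log2 fold just below 0 is common among all genes tested. How many of them had an interval wholly below no difference was not counted. At least 4-fold lower were 11 of the 60, against a background of 3.07%. Among the 4984 other genes at or above 46.5 CPM in the untreated library, which is the lowest CPM among the 60, 11.0% were at least 2-fold lower.

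Low counts did not limit these values. Each of the 60 genes exceeded 1 CPM in both libraries, so none passed the filter through 1 library alone. Counts ran from 793 (Nle1) to 55191 (Ncl) in the untreated library and from 176 (Mrto4) to 17110 (Ncl) in the Dox library. Together the 60 genes took 1.41% of all counts in the untreated library (exact Clopper-Pearson 95% interval 1.41% to 1.42%) and 0.477% in the Dox library (0.474% to 0.481%). Without Ncl, which alone held 0.325% and 0.104%, the other members of the list took 1.09% and 0.373%. These are shares of each library's RNA: fewer cells that express a gene and less of its RNA per cell cannot be told apart, nor can a change in the total RNA of a cell be seen.

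**Figure D1:**
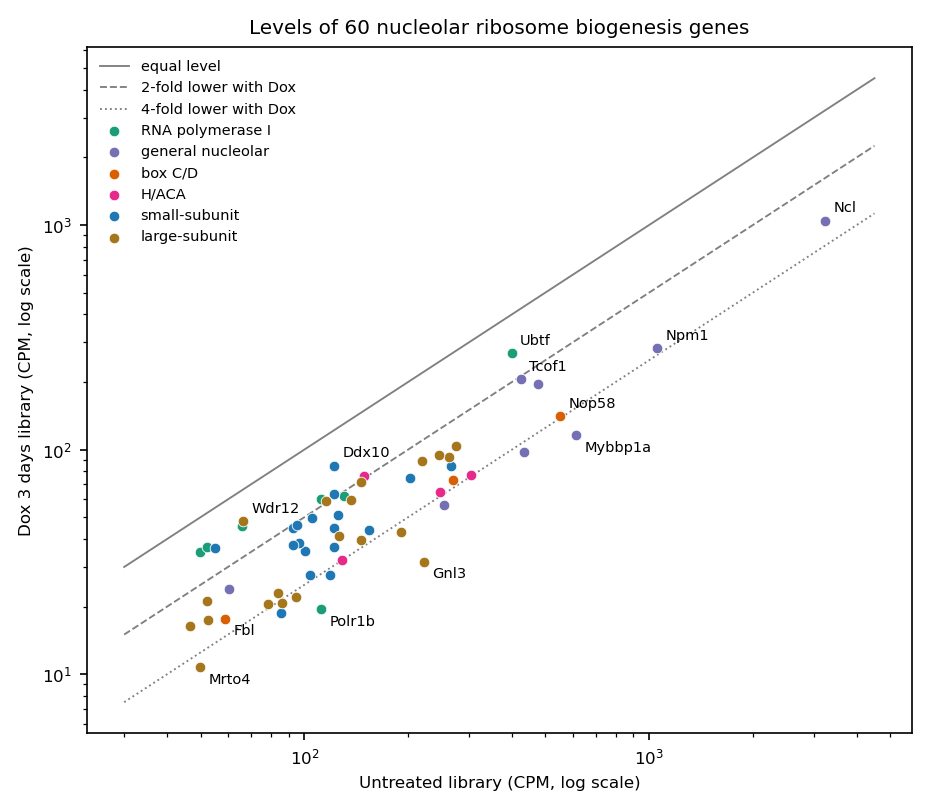
Level of each of the 60 genes in the untreated library (x axis, CPM, log scale) against the Dox library (y axis, CPM, log scale), 1 point per gene, coloured by role, with lines for equal levels and for 2-fold and 4-fold lower levels with Dox. All points lie below the line of equal levels, from 46.5 CPM (Nle1) to 3233 CPM (Ncl) in the untreated library, and 11 lie below the 4-fold line.

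Among the RNA polymerase I genes, 2 of 7 were at least 2-fold lower (28.6%) and the median log2 fold was -0.57. Polr1b, the second largest subunit and part of the catalytic core, was at 111.8 and 19.4 CPM (here and below, the untreated value comes first and the Dox value after it). That is 5.76-fold lower (log2 fold -2.52, interval -2.70 to -2.35), the second largest difference among the 60 genes. Polr1a, the largest subunit, which forms the active site together with Polr1b, was at 130.3 and 62.0 CPM, 2.10-fold lower with an interval of -1.18 to -0.96 on the log2 scale. The other 5 lay within 2-fold. Rrn3, the factor that couples the polymerase to growth signals and to the promoter, was at 111.4 and 60.3 CPM. Ubtf, the architectural factor that coats active ribosomal DNA, had 398.6 and 269.3 CPM. Polr1c, a subunit also found in RNA polymerase III, had 66.0 and 45.5 CPM, Polr1e 52.3 and 36.8 CPM, and Taf1d, a subunit of the promoter selectivity factor, 49.8 and 34.8 CPM. These last 4 had log2 folds between -0.57 and -0.51, and their intervals overlap one another.

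Of 8 polymerase I genes outside the list of 60, 1 was at least 2-fold lower (12.5%, against 13.0% of all genes tested) and the median log2 fold was -0.31. That gene was Polr1g (listed in RefSeq as Cd3eap), a subunit that binds the initiation factors, at 45.5 and 11.6 CPM. Taf1a, another selectivity factor subunit, had 22.5 and 11.6 CPM, and Polr1h (listed as Znrd1) 94.5 and 55.8 CPM. Among genes named here after their values were seen, Taf1c had 33.6 and 54.0 CPM and the termination factor gene Ttf1 37.8 and 58.9 CPM, both higher in the Dox library. Within the polymerase, Polr1b and Polr1g had log2 folds of -2.52 and -1.96, while Polr1f (listed as Twistnb, also named after its value was seen), which joins the same enzyme, had -0.42.

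The 3 nuclear RNA polymerases can be set side by side because each has its own large subunits. All 7 subunits found in RNA polymerase II alone lay within 2-fold, with a median log2 fold of -0.36 (-0.22 with the trend of log2 fold with gene length removed); the lowest, Polr2b, was at 280.4 and 201.1 CPM. Of 10 subunits of RNA polymerase III alone, 3 were at least 2-fold lower, among them Polr3d (31.6 and 7.57 CPM) and Polr3e (63.8 and 21.5 CPM), while the median was -0.21. Of the 5 small subunits shared by all 3 enzymes, 4 were 2-fold lower or more (median -1.10), but 1 of 5 with the gene length trend removed (median -0.87) and 2 of 5 where the whole interval had to be beyond 2-fold. Polr2f had 142.3 and 59.7 CPM, and Polr2l had a log2 fold of -1.62. The counterparts of Polr1b in the other enzymes are Polr2b, with a log2 fold of -0.48, and Polr3b, named after its value was seen, with -0.06.

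**Figure D2:**
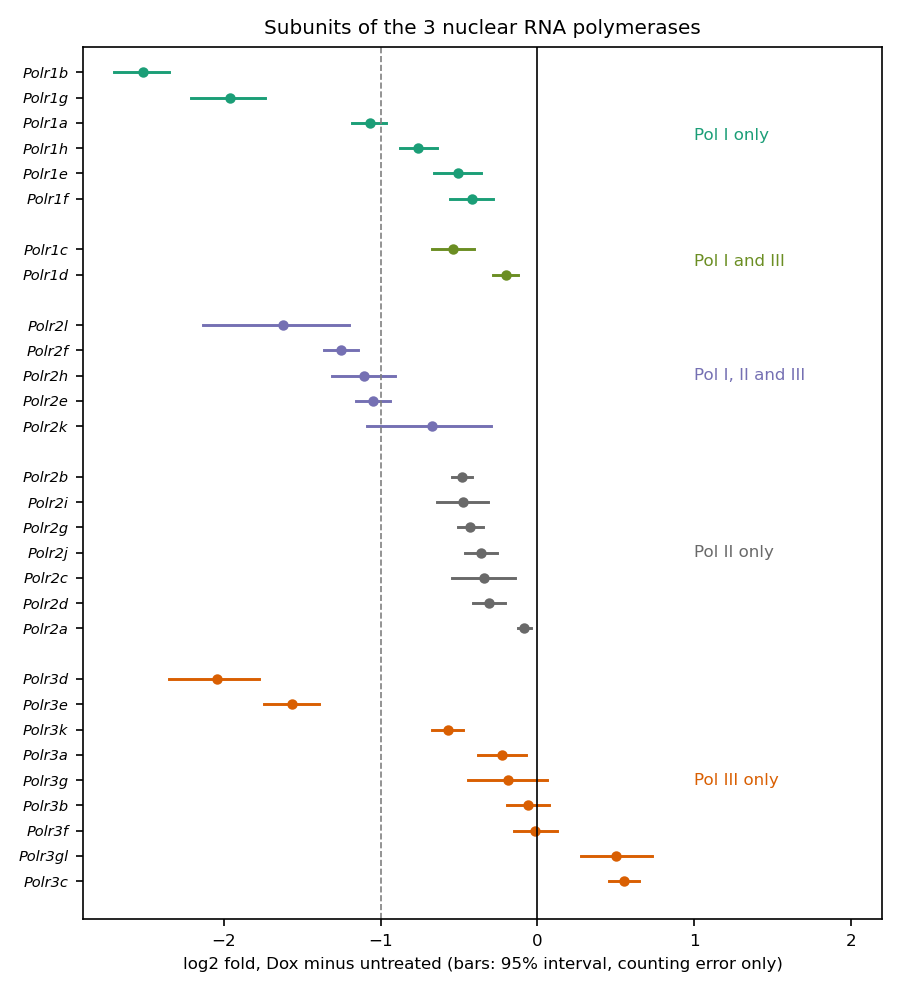
Log2 fold (Dox minus untreated, x axis) of subunit genes of RNA polymerases I, II and III (y axis; 1 subunit is not shown), grouped by the enzymes that use it. Points are estimates from 1 library per condition, bars the 95% counting intervals, and the dashed line marks 2-fold lower; Polr1b (-2.52) and Polr3d (-2.04) are the lowest, and all 7 polymerase II subunits lie between -0.48 and -0.08.

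The genes of general nucleolar proteins, which serve several steps, all passed the 2-fold threshold (8 of 8, median log2 fold -1.76). Mybbp1a, a nucleolar protein that binds the Myb transcription factor and acts in ribosomal RNA synthesis, stood at 613.6 CPM untreated and 115.7 CPM with Dox, 5.30-fold lower. Lyar, a zinc finger protein of growing cells, was at 253.5 and 56.4 CPM. Nolc1 (Nopp140), a chaperone of snoRNPs, was at 433.5 and 97.5 CPM. These 3 each had an interval wholly beyond 4-fold. Ncl, nucleolin, which binds nascent ribosomal RNA and had the most counts of the 60, was at 3233 and 1045 CPM, 3.09-fold lower (interval -1.65 to -1.61 on the log2 scale, the narrowest of all). Npm1, nucleophosmin, the scaffold of the outer nucleolar layer, was at 1056 and 283.1 CPM. Its smaller relative Npm3 was at 60.3 and 24.0 CPM. Npm1 was thus 3.73-fold and Npm3 2.51-fold lower, with intervals that do not overlap, but 31.9% and 36.1% of the 50-base windows of their mRNAs also occur in other annotated genes, and both values are uncertain for that reason. Ddx21, an RNA helicase that works on ribosomal RNA transcription and snoRNPs, had 477.1 and 196.1 CPM. Tcof1 (treacle), the protein that ties polymerase I transcription to snoRNPs and is mutated in Treacher Collins syndrome, had 424.1 and 205.3 CPM, the smallest difference of the role with a log2 fold of -1.05.

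The core proteins of the box C/D snoRNP, which guides methylation of ribose on ribosomal RNA, were lower by similar amounts. Nop58 was at 551.5 and 141.2 CPM, Nop56, its partner on the guide RNA, at 269.8 and 73.1 CPM, and Fbl (fibrillarin), the methyltransferase itself, at 58.8 and 17.6 CPM. All 3 were at least 2-fold lower, between 3.33-fold (Fbl) and 3.90-fold (Nop58), and their intervals overlap one another. For Fbl 70.2% and for Nop56 30.3% of windows are shared with other annotated genes, so their levels are uncertain.

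Among the 4 proteins of the H/ACA snoRNP, which converts uridine to pseudouridine, 1 stood apart. Dkc1 (dyskerin), the pseudouridine synthase that also stabilises telomerase RNA, was at 303.9 and 77.4 CPM. Nhp2 was at 247.7 and 64.5 CPM, and Gar1 at 128.1 and 32.3 CPM. These 3 were 3.84-fold to 3.97-fold lower, a narrower range than any of their intervals. Nop10, the smallest of the complex, was at 149.3 and 76.2 CPM, 1.96-fold lower, and its interval (-1.07 to -0.87 on the log2 scale) does not overlap those of the other 3. On the per-length scale (CPM per kilobase of the table's gene length), Nhp2 was the highest of the 4 in the untreated library with 246.7, ahead of Nop10 with 214.8, Dkc1 with 108.4 and Gar1 with 100.8. In the Dox library Nop10 was the highest with 109.6, ahead of Nhp2 with 64.3, Dkc1 with 27.6 and Gar1 with 25.4. The ratio of the highest to the lowest per-length level in the complex was 2.45 in the untreated and 4.31 in the Dox library.

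**Figure D3:**
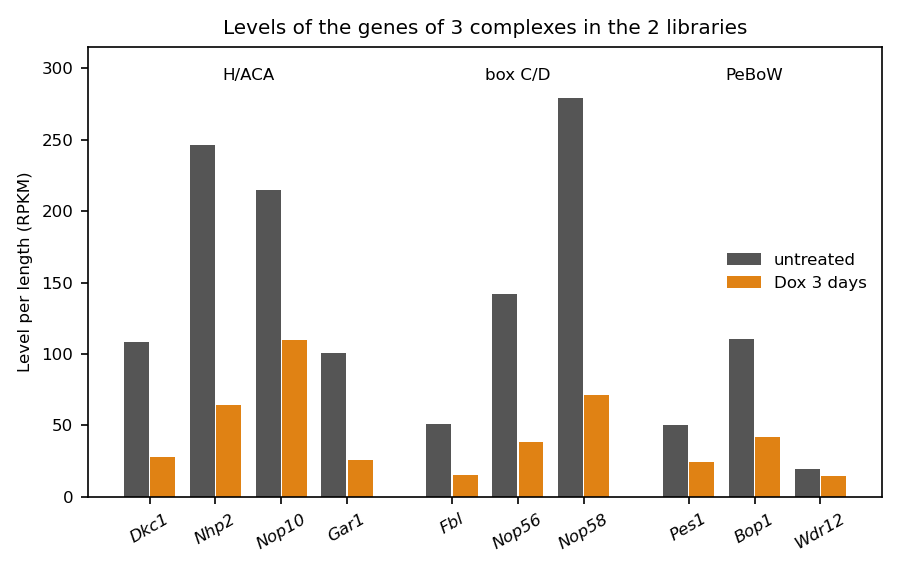
Level per length (RPKM, CPM per kilobase; y axis, starting at 0) of the genes of the H/ACA snoRNP, the box C/D snoRNP and the PeBoW complex in the untreated and the Dox library, 1 bar per gene and library with no error bar because each is 1 library. Nop10 goes from 214.8 to 109.6 while Nhp2 goes from 246.7 to 64.3, and Wdr12 goes from 19.7 to 14.2.

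Of the 18 small-subunit assembly factors, 15 (83.3%) passed the same threshold, with a median log2 fold of -1.39 and a range from -2.18 to -0.53. Rrp12, a repeat protein that takes part in export of the small-subunit precursor, was the lowest, at 85.6 and 18.7 CPM (4.57-fold). Tsr1, a GTPase-like factor of the late precursor, was at 118.9 and 27.7 CPM (4.29-fold), although 31.1% of its windows are shared with other annotated genes, among them its neighbour Srr. Rrp9, a protein of the box C/D particle that starts processing of the precursor, had 103.5 and 27.7 CPM. Members of the small-subunit processome, the large early assembly on the nascent transcript, came next: Utp20 (153.5 and 43.7 CPM), Wdr75 (122.0 and 36.9 CPM), Wdr43 (265.7 and 84.2 CPM), Pwp2 (100.5 and 35.5 CPM) and Heatr1 (202.5 and 74.4 CPM). These 5 ranged from 3.51-fold to 2.72-fold lower. Utp18 was at 124.8 and 50.9 CPM, Utp15 at 105.0 and 49.8 CPM and Nop14 at 95.3 and 46.0 CPM.

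Late factors of the small subunit, which act in the nucleoplasm and cytoplasm, lay in the same range. Pno1, which holds the end of the small-subunit RNA, was at 122.1 and 44.8 CPM, and Nob1, the endonuclease that makes the final cut there, at 92.8 and 44.8 CPM. Ltv1 had 96.7 and 38.2 CPM and Bysl (bystin) 92.4 and 37.6 CPM. The log2 folds of these 4 ran from -1.44 (Pno1) to -1.05 (Nob1). The 3 small-subunit genes within 2-fold were Noc4l (122.1 and 63.1 CPM, 1.93-fold), Dhx37, the helicase that releases the snoRNA guide of the processome (55.2 and 36.3 CPM, 1.52-fold), and the helicase Ddx10 (122.1 and 84.7 CPM, 1.44-fold). The intervals of Dhx37 and Ddx10 do not overlap those of the 15 genes that were at least 2-fold lower.

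The 20 large-subunit factors included the gene with the largest difference among the 60. Gnl3 (nucleostemin), a GTP-binding protein known from stem cells and tumours, was at 222.3 and 31.7 CPM, 7.02-fold lower (log2 fold -2.81, interval -2.95 to -2.68). Its relative Gnl2, a GTPase of the same subunit's precursor, was at 115.6 and 59.0 CPM, 1.96-fold lower. The intervals of this pair are far apart. Mrto4, related to the stalk protein of the ribosome, was at 49.7 and 10.7 CPM, though 21.6% of its windows are shared, among others with the pseudogenes Mrto4-ps1 and Mrto4-ps2. Nop2, a methyltransferase also known as a proliferation antigen, was at 190.2 and 42.7 CPM, Ppan at 94.3 and 22.0 CPM and Rrp1b at 86.2 and 20.6 CPM. With Gnl3 these were the 5 large-subunit genes at least 4-fold lower.

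In all, 18 of the 20 large-subunit genes were at least 2-fold lower (90.0%), and the median log2 fold was -1.55. Grwd1 had 78.4 and 20.5 CPM, Nop16 83.7 and 23.1 CPM, and Rrs1, which brings the small ribosomal RNA of the large subunit into the precursor, 145.7 and 39.6 CPM. The helicases Ddx56 (125.7 and 41.3 CPM) and Ddx18 (52.4 and 17.4 CPM, with 61.4% of windows shared with other genes) and the methyltransferase Ftsj3 (263.2 and 92.3 CPM) were about 3-fold lower. Nle1, which a remodelling enzyme removes from the precursor, had 46.5 and 16.4 CPM. Noc2l and Noc3l, which form a pair in transport of the precursor, were at 244.8 and 94.6 CPM and at 52.3 and 21.2 CPM, with overlapping intervals. Ebna1bp2 had 218.9 and 89.3 CPM and Nip7 136.4 and 59.3 CPM.

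Pes1, Bop1 and Wdr12 form the PeBoW complex of large-subunit processing, and they differed in size. Bop1 was at 274.3 and 103.9 CPM, 2.64-fold lower. Pes1 was at 146.0 and 71.7 CPM, 2.03-fold lower, with 24.6% of its windows shared with other genes. Wdr12 was at 66.4 and 48.1 CPM, 1.38-fold lower, the smallest difference among all 60. Their 3 intervals do not overlap one another. Per kilobase, Bop1 was 5.64 times the level of Wdr12 in the untreated library and 2.95 times in the Dox library.

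**Figure D4:**
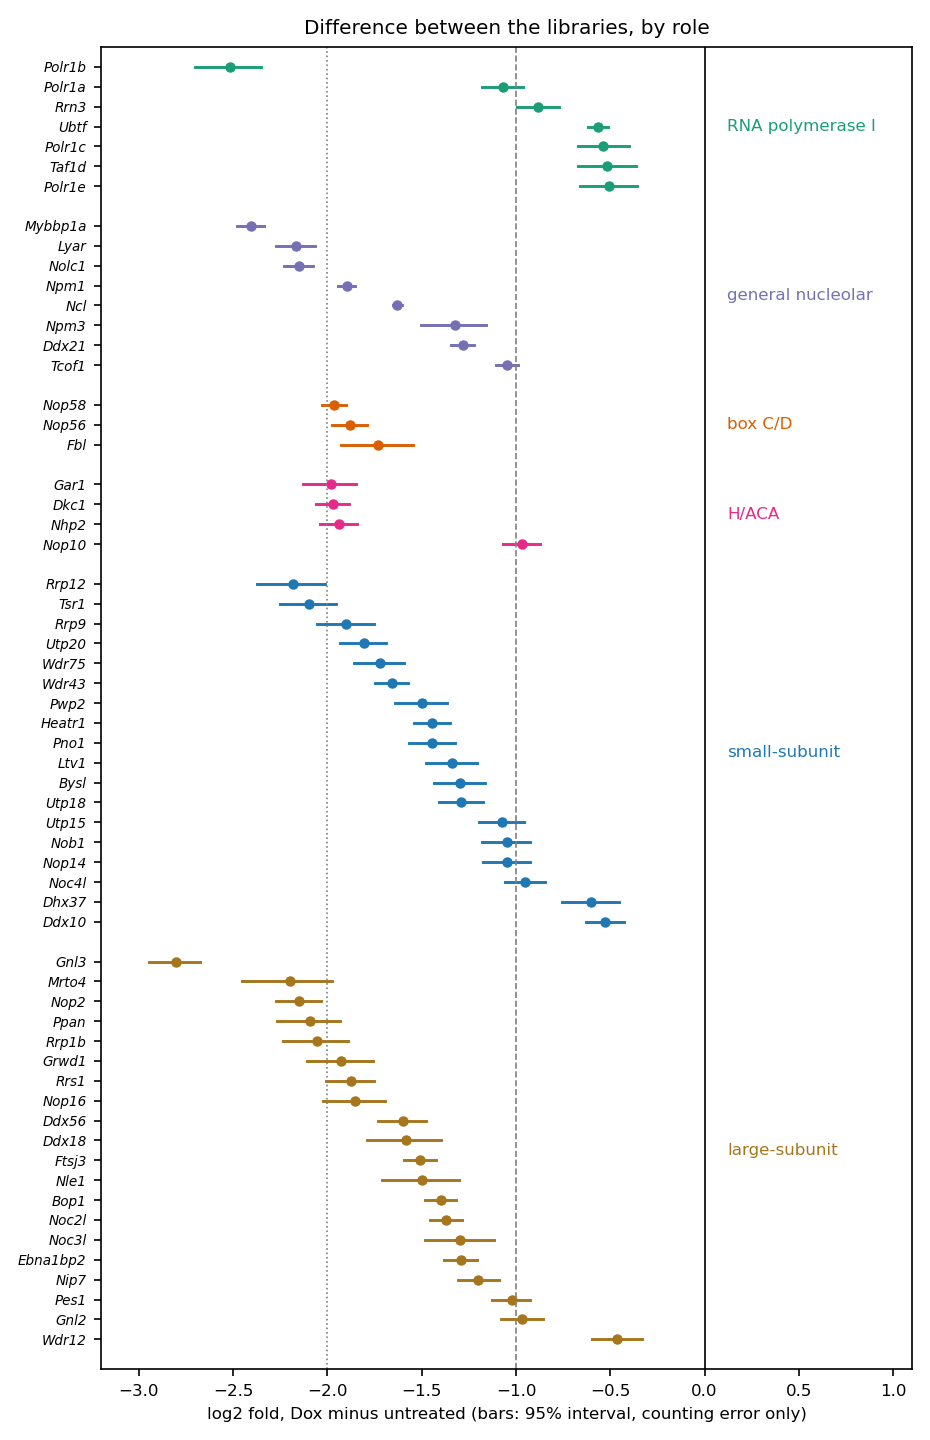
Log2 fold (Dox minus untreated, x axis) of each of the 60 genes (y axis), sorted within the 6 roles. Points are estimates from 1 library per condition and bars the 95% counting intervals; dashed and dotted lines mark 2-fold and 4-fold lower. Gnl3 (-2.81) and Polr1b (-2.52) are farthest to the left and Wdr12 (-0.46) is nearest to 0.

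Of the 60, the genes just inside the 2-fold threshold were Pes1 (log2 fold -1.02), Tcof1 (-1.05), Nop14 (-1.05) and Nob1 (-1.05). Just outside were Nop10 (-0.97), Gnl2 (-0.97), Noc4l (-0.95) and Rrn3 (-0.88). Across the 60 genes, the log2 fold had a Spearman rho of -0.23 with the untreated level in CPM and of 0.13 with gene length, given as a description over genes of the same pair of libraries. The untreated level enters both measures of the first correlation.

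The start sites of these genes were searched for the letters CACGTG, the E-box that Myc and other basic helix-loop-helix factors bind (it reads the same on both strands), in the RefSeq promoter windows of GRCm38.p6, which run from 250 bases before to 50 bases after each start. Windows were matched for 53 of the 60 genes. A gene with several windows, as 4 of the 53 have, counts as holding the letters if any window does. For 35 of the 53 a window starts at the outer end of the gene's RefSeq interval, and for 18 the nearest one starts inside it. The letters were in 12 of the 53 (22.6%), in 11.8% of the 9305 tested genes with a window, and in 8.09% of all 27025 genes with a window. The position in the window, was looked at after the matches were seen. In the 50 bases after the start the letters were in 9 of the 53 genes (17.0%), against 1.95% of tested genes, 1.94% of the 3914 other genes at or above 46.5 CPM in the untreated library, and 9.40% of 117 other genes of the pathway. Of those 9 genes, 6 have a window that starts at the outer end of the gene. In the 250 bases before the start they were in 5.66% of the 53 genes and 9.96% of tested genes. A match is a description of the letters and not a bound site.

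The 4 genes with the largest differences among those that hold the letters were Mybbp1a, Nop2, Tsr1 and Grwd1. Their matches are printed with up to 12 bases on either side, with the E-box in capitals, because they show where the letters lie. In Mybbp1a (chr11:72441355-72441376, plus strand) the E-box begins at base 41 after the start, in the 5′ untranslated part of its first exon. In Nop2 (chr6:125131811-125131840, plus strand) it begins 60 bases before the start, in no annotated exon. In Tsr1 (chr11:74898092-74898121, plus strand) it begins at base 25 after the start, and the bases printed span both untranslated and coding exon sequence. In Grwd1 (chr7:45830740-45830767, minus strand) it begins at base 35 after the start of the window used, in sequence that GENCODE annotates as coding exon. That start lies 205 bases inside the gene's RefSeq interval, so the E-box is 240 bases from the gene's outer end.
Mybbp1a: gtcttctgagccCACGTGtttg
Nop2: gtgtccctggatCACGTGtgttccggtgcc
Tsr1: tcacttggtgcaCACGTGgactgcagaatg
Grwd1: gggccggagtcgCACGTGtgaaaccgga

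The 12 with an E-box had a median log2 fold of -1.58 and 11 of them were at least 2-fold lower. The 41 without had a median of -1.44 and 32 at least 2-fold lower. Nop2, with the letters CACGTG, and Nolc1, without them, had near-equal values. The Nolc1 sequence printed here does hold CGCGTG, the variant E-box of the next paragraph. Nop2 and Nolc1 both had a log2 fold of -2.15. Nop2 was picked as the gene with the lowest log2 fold that holds CACGTG within the 250 bases before the start. Nolc1 was picked as the lowest of those with no CACGTG in any window. For both genes, those 250 bases had to overlap no annotated exon. Their like values therefore follow in part from that choice. Those 250 bases are given here in full. Those of Nop2 (chr6:125131633-125131882, plus strand) hold the E-box CACGTG and those of Nolc1 (chr19:46075597-46075846, plus strand) do not.
Nop2: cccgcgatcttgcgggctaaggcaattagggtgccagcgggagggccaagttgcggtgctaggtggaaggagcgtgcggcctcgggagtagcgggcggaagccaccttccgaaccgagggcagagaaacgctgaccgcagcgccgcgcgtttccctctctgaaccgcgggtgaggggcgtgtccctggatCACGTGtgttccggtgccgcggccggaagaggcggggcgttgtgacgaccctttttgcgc
Nolc1: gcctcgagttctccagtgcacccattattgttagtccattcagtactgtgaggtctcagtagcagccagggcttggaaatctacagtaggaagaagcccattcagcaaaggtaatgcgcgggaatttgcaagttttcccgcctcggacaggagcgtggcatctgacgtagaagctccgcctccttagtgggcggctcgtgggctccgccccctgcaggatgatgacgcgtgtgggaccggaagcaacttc

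Among the other letters searched, CGCGTG (or CACGCG on the other strand), a variant E-box, was in a window of 37.7% of the 53 genes. The share was 20.3% of tested genes with a window. Those of the 53 genes that hold it had a median log2 fold of -1.24, against -1.58 for those that do not. The letters TGGGAA (or TTCCCA), the core that Ikaros proteins recognise, were in a window of 30.2% of the 53 genes. The share was 26.1% of tested genes with a window. Of the 53, the 16 genes that hold TGGGAA or TTCCCA had a median log2 fold of -1.68 with 13 at least 2-fold lower. The 37 that do not had -1.44 with 30. A window can hold more than 1 of these motifs, and CACGTG can overlap TGGGAA or TTCCCA by 2 bases.

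The difference extended, in smaller size, to other genes of ribosome assembly. Of 143 tested genes in 7 further lists, 58 (40.6%) were lower and 0 higher by 2-fold or more, and the median was -0.81. Of all 12125 genes tested, 13.0% were lower and 13.6% higher by as much, and the median was -0.01. A negative log2 fold, which 133 of the 143 had, is thus common among all genes tested, and its share there was not counted. The 42 other small-subunit genes had 13 below the 2-fold line and a median of -0.63. The lowest were Nat10, the acetyltransferase of ribosomal RNA (101.1 and 25.5 CPM), Rcl1 (85.4 and 24.1 CPM) and Tsr2 (55.5 and 16.7 CPM). Of 45 other large-subunit genes, 17 passed the same threshold (median -0.86), among them Tma16 (19.6 and 4.21 CPM), Rrp15 (74.2 and 20.8 CPM) and Ccdc86 (56.1 and 17.1 CPM). Both medians are nearer to 0 than those of the small-subunit (-1.39) and large-subunit (-1.55) genes among the 60; the 60 were chosen with earlier results known, so the difference between the lists was not tested.

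Genes that assemble snoRNPs passed 2-fold lower in 9 of 11 cases, and their median log2 fold was -1.22. Naf1, which accompanies dyskerin on new H/ACA particles before Gar1 takes its place, was at 57.5 and 9.71 CPM, 5.92-fold lower. Znhit6, an assembly factor of box C/D particles, had 46.0 and 15.4 CPM, and the ATPase Ruvbl2 253.9 and 90.4 CPM. Of 12 tested noncoding host genes of snoRNAs, 7 were at least 2-fold lower (median -1.04), or 4 with the gene length trend removed, with Snhg12 at 307 and 87 counts, Snhg4 at 483 and 138 counts and Snhg15 at 344 and 132 counts.

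Nucleases that trim ribosomal RNA were also among the lower genes. In the RNA exosome and its cofactors, 6 of 14 were at least 2-fold lower (median -0.83), 3 of them with the whole interval beyond 2-fold, with Exosc2 at 128.1 and 47.0 CPM, Dis3, a catalytic subunit, at 99.4 and 38.8 CPM and Exosc1 at 58.1 and 23.3 CPM. In RNase MRP and P, 5 of 11 were at least 2-fold lower (median -0.78), 3 of them with the whole interval beyond it. Rpp38 was at 23.7 and 3.24 CPM, 7.33-fold lower, Pop1 at 54.5 and 18.7 CPM, and Rpp25 had only 22 and 5 counts.

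The last lists hold the proteins of the finished ribosome. Of 77 tested cytosolic ribosomal protein genes, 9 (11.7%) were at least 2-fold lower, near the 13.0% of all genes tested. The median was -0.58, against -0.01 over all genes tested. A negative log2 fold, which 73 of the 77 had, is common among all genes tested, and its share there was not counted. With the gene length trend removed, the 2-fold count of this list was 3 and its median -0.32. The cytosolic ribosomal protein genes took 2.50% of counts in the untreated and 1.82% in the Dox library. Their lowest were Rpl36a (199 and 64 counts), Rpl13 (119 and 40 counts) and Rps27a (1010 and 390 counts), for which sharing of reads with near-identical copies was not checked. Of 76 mitochondrial ribosomal protein genes, 14 (18.4%) were lower by 2-fold or more (median -0.66), led by Mrpl12 (106.7 and 30.2 CPM), Mrpl17 (log2 fold -1.60) and Mrps6 (36.4 and 11.9 CPM). With the gene length trend removed the count was 7 and the median -0.49. The difference between these lists and the 60 genes was not tested.

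**Figure D5:**
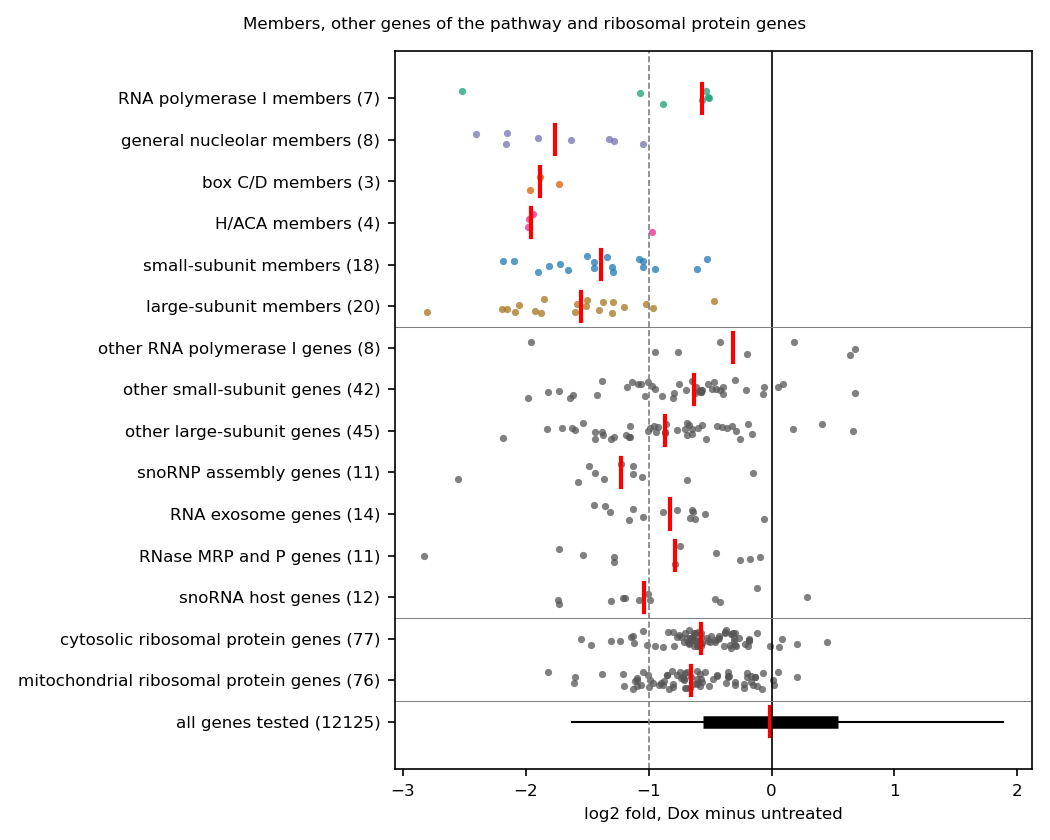
Log2 fold (Dox minus untreated, x axis) of the genes of each list (y axis, number of tested genes in brackets), with the 6 roles of the 60 genes on top, other genes of ribosome assembly in the middle and ribosomal protein genes below. Points are genes, red lines medians, the dashed line marks 2-fold lower, and for all genes tested the thick bar spans the 25th to 75th and the thin line the 5th to 95th percentile; the H/ACA list has the lowest median (-1.96) and all genes tested have -0.01.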

How the data were processed

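RNA of sorted ALL211 leukemia cells was sequenced in 1 untreated and 1 Dox library. The authors deposited raw read counts per Entrez gene beside each gene's length. The submitters' processing notes name CASAVA 1.8.2, featureCounts and mm10. No source used here gives the aligner, annotation or strand setting, so reads of overlapping, antisense or near-identical genes may be shared. The series table equalled the separate sample tables (0 genes differed). Symbols came from RefSeq (GRCm38.p6) for 25275 of 27179 genes; 3 polymerase subunits were matched by their older symbols.

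Counts were scaled with TMM in edgeR 4.0.16 under R 4.3.3 (factors 1.01 and 0.994). Log2 folds use a prior count of 2; CPM, per-length levels and fold ratios use none. Genes with at least 1 CPM in 1 library were kept. The floor of 3 counts is 0.176 and 0.183 CPM. Clopper-Pearson 95% intervals are conditional on the summed counts. With 1 library per condition, nothing was tested between conditions. Any of the 60 genes may be named, and of other lists the 3 with the largest absolute log2 fold. The members and lists were chosen with earlier results of these data known. Shared windows are 50-base stretches of a gene's GENCODE M21 mRNAs also found in another gene on either strand. The procedure was tested on simulated Poisson counts for the Dox comparison (12125 genes): 100% of 200 changed and 0.319% of unchanged genes came out beyond 2-fold. All changed genes were simulated well beyond 2-fold, and no spread between animals or libraries was simulated. These percentages are therefore not detection or error rates for the real libraries. Alternatives were DESeq2 1.42.0, total-count and upper quartile scaling, other prior counts, filters and thresholds, thinning, scaling without listed genes, and removal of a gene length trend. Python 3.11.15 and matplotlib 3.10.9 were used. The values of some listed genes are not reported here.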

Additional observations from a re-analysis of the deposited data

How the results depend on the processing

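Under the 11 alternatives other than thresholds, all 60 genes kept a negative log2 fold and 47 of the 49 stayed at least 2-fold lower in each; the exceptions were Nob1 and Pes1, which lay just inside it. No result changed sign among those at least 2-fold apart. With the gene length trend removed, 4 snoRNA host genes and 1 shared polymerase subunit were at least 2-fold lower. So were 3 cytosolic and 7 mitochondrial ribosomal protein genes. Medians were then -0.87 (shared subunits), -0.32 (cytosolic), -0.49 (mitochondrial), -0.22 (polymerase II subunits), -0.69 (exosome) and -0.62 (RNase MRP and P). The H/ACA median was -1.79 and no longer the lowest, beside -1.82 for general nucleolar and -1.80 for box C/D genes. Ikzf1 had a log2 fold of 3.24. The cause of these shifts was not tested. In at least 1 setting, 17 of the 60 genes had a log2 fold outside their main counting interval. Keeping genes with 1 count gave 2993 genes at least 2-fold higher, and keeping those with 5 CPM gave 1091. Requiring the interval wholly beyond 2-fold left 1016 of all genes lower, 43 of the 60, and 1 polymerase I member, 3 exosome, 3 RNase MRP and P, 2 shared polymerase, 3 cytosolic and 6 mitochondrial ribosomal protein genes. At 4-fold, 372 of all genes were lower and 541 higher; of the 60, 11 were lower: 1 polymerase I, 3 general nucleolar, 0 box C/D, 0 H/ACA, 2 small-subunit and 5 large-subunit genes. In the other lists the 4-fold counts were 1 large-subunit, 1 snoRNP assembly, 1 RNase MRP and P and 1 polymerase III gene, and 0 in the other polymerase I, other small-subunit, exosome, snoRNA host, shared polymerase and both ribosomal protein lists. No paired analysis was possible because each condition has 1 library, and for the same reason the planned replicate block and leaving out each replicate were not run. The counting intervals of the 60 genes were at most 0.48 wide on the log2 scale; they cover counting error only, and the spread between replicates is not measured.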
